A study of Mus musculus with 15 samples.

Results

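Transcripts of 10 genes that encode the nuclear receptors and coregulators of cardiac fuel metabolism were followed in the left ventricle of mice with chronic kidney disease. The genes were chosen by name, 10 of the 55487 genes in each table. They include the peroxisome proliferator-activated receptors Ppara, Ppard and Pparg and the retinoid X receptor Rxra, a partner of these. The others are the estrogen-related receptors Esrra, Esrrb and Esrrg, the coactivators Ppargc1a and Ppargc1b (PGC-1alpha and PGC-1beta), and the corepressor Nrip1 (RIP140). All 10 passed the filter on low counts. Total RNA depleted of ribosomal RNA was sequenced from free-wall left ventricle of 7 male mice with the genotype Col4a5 Knockdown and 8 male wild-type littermates, both kept on normal chow to 225 days, when the mutants had advanced kidney disease. The series text calls the mutants collagen IV knockouts and the sample labels call them a knockdown, so the kind of allele is not settled here, and the strain is not given in the sources used here. The titles name isoflurane and the treatment protocol names ketamine and xylazine for all 15 animals. The design text counts the animals as biological replicates.

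The PPARs are fatty acid sensors that bind DNA with a retinoid X receptor and switch on genes of fatty acid uptake, storage and oxidation. The ERRs have no known natural hormone, and with the PGC-1 coactivators they drive genes of the respiratory chain and the citric acid cycle. In heart muscle PPARalpha and PPARdelta, ERRalpha and ERRgamma, and both PGC-1 proteins are central to mitochondrial energy supply, and RIP140 opposes many of the same genes.

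The DNA core that both receptor families read is the hexamer AGGTCA, used in tandem by PPAR and RXR pairs, and in the longer form AAGGTCA by the ERRs. RefSeq promoter windows (250 bases before to 50 after a start, GRCm38.p6) were found for 9 of the 10 genes, 17 windows in all, and none was found for Ppargc1b. AGGTCA or its reverse complement TGACCT lay in 3 of the 17 windows (17.6%), against 16.3% of 32851 windows of all genes. AAGGTCA or TGACCTT, which contain the shorter core, lay in 1 of the 17 (5.88%), against 4.72% of all windows. The 3 windows are shown first because they are the only ones of the 10 genes that hold the core. Aqp7 is shown as a PPAR target gene that fell. Among the other PPAR targets that fell, the windows of Retsat, Acot2, Cpt2 and Hadha did not hold the core, and no window was found for Crat. Perm1, a striated muscle regulator induced by PGC-1 and ERR, is shown for its longer match. Each run is the 250 bases before the start, 5′ to 3′, with matches in capitals, and a match is a match of letters, not a measured binding site.
Rxra (chr2:27709042-27709291, plus strand): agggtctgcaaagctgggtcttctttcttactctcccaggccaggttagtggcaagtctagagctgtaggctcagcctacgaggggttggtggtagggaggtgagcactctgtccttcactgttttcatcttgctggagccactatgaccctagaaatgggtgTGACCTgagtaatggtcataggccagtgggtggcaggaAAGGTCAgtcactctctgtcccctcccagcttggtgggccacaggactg
Pparg first start (chr6:115360894-115361143, plus strand): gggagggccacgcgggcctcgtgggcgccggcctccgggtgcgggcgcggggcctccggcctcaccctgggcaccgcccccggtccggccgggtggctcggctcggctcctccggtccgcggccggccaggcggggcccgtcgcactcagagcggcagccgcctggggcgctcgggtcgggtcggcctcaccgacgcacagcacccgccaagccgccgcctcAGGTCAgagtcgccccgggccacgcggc
Pparg second start (chr6:115362099-115362348, plus strand): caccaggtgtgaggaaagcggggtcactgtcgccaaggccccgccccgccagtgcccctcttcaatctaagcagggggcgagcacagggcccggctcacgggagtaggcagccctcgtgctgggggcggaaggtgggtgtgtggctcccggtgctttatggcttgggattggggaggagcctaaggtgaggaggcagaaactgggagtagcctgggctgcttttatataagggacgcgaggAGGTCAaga
Aqp7 (chr4:41048137-41048386, minus strand): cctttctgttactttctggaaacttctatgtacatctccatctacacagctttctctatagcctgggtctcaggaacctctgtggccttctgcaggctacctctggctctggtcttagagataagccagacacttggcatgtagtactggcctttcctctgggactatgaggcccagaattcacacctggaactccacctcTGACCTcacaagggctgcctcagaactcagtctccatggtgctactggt
Perm1 (chr4:156215677-156215926, plus strand): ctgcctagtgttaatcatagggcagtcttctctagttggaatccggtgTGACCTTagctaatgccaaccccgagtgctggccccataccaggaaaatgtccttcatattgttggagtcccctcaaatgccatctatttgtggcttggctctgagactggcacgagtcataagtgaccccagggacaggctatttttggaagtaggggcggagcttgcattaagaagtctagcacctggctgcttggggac

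The targeted gene was examined first. Col4a5 had 522 to 1111 counts in the kidney disease libraries and 2442 to 3620 in the wild-type libraries, so the labels and the transcript matched in all 15. On the scale used below, CPM (each gene's count relative to the library total) with TMM scaling between libraries, it stood at 13.5 ± 2.97 (SD, n = 7) against 57.0 ± 4.93 (n = 8), a log2 change of -2.08 (SE 0.11, adjusted p = 3.0e-09 by edgeR's quasi-likelihood test with Benjamini-Hochberg adjustment over all genes). Libraries held 54263014 to 65519279 counts in the diseased group against 48748379 to 57962094 in the littermates. Ttn was the most counted gene in 5 libraries (3 kidney disease, 2 wild type) and mt-Co1 in 10. Over all genes, 168 of 20718 rose and 98 fell at an adjusted p under 0.05. In all, 2 libraries recur below: kidney disease animal 6 was the lowest of its group for 6 of the 10 genes, and wild-type animal 7 the lowest of its group for 5. The change of each of the 10 genes is therefore also given without each of these animals.

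None of the 10 genes passed the threshold in edgeR's test, and the same was true of DESeq2 and limma-voom, against 1.28% of all genes tested in either direction (0.811% higher, 0.473% lower). Of the 10, only Ppargc1b had an unadjusted p under 0.05, against 2568 of all genes (12.4%). Of the 10 estimates, 8 lay below 0, with a median log2 change of -0.06, beside a median of 0.0042 over all genes, of which 48.8% lay below 0. No gene of the 10 had groups that did not overlap, against 0.565% of all genes. All 10 are protein-coding, and their positions below are those of the deposited tables on GRCm38. In whole ventricle, fewer cells of a type and less RNA per cell cannot be told apart.

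**Figure D1:**
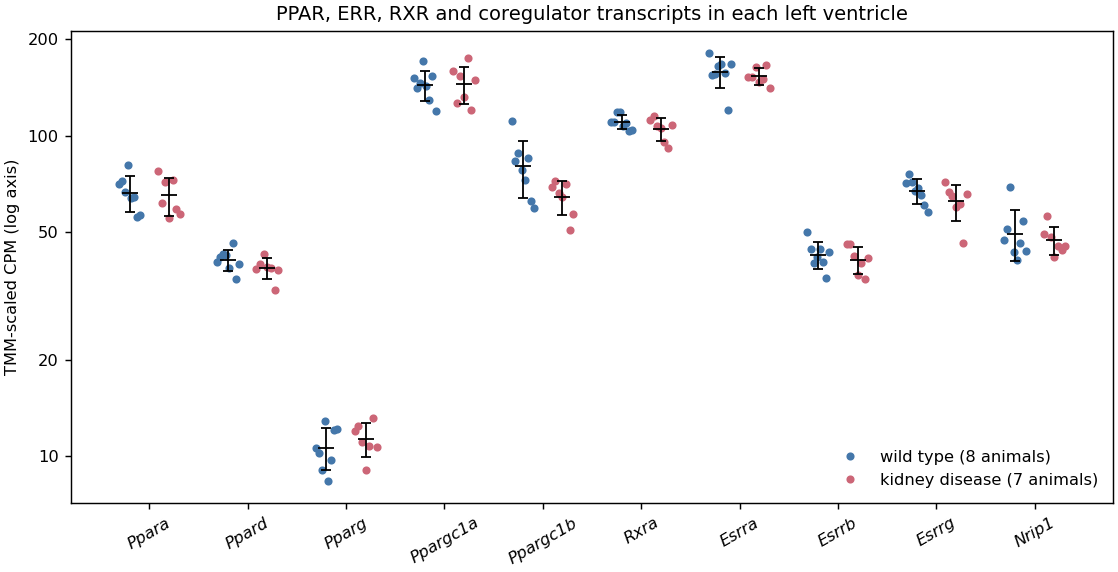
TMM-scaled CPM on a log axis for each of the 10 genes, with 1 point per animal, the group mean as a horizontal bar and 1 SD as whiskers. The 7 kidney disease and 8 wild-type animals overlap for every gene, and Ppargc1b has its highest wild-type animal at 111 CPM and its highest kidney disease animal at 72.1 CPM.

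The order of abundance was read on a scale corrected for annotated exon length (FPKM with the same TMM scaling, mean over all 15 libraries). This length takes the exon bases of all annotated isoforms of a gene together, so the order depends on that annotation. Esrra led with 35.3 ± 3.21 FPKM (SD, n = 15), followed by Ppargc1a at 21.9 ± 2.54, Ppargc1b at 18.2 ± 3.77, Ppara at 17.1 ± 2.17 and Rxra at 17.1 ± 1.17. Esrrg stood at 10.5 ± 1.15, Esrrb at 6.92 ± 0.656, Ppard at 5.30 ± 0.423, Nrip1 at 4.23 ± 0.623 and Pparg at 3.71 ± 0.5002 FPKM. Esrra was thus the most abundant of the receptor transcripts, and Pparg had the lowest mean of the 10. Nrip1 exceeded Pparg in 12 of 15 libraries, with overlapping ranges, so the last place is not fully resolved. Between neighbours in this order the ranges were separate in 2 places, below Esrra and between Rxra and Esrrg. Ppargc1b exceeded Ppara in 9 of 15 libraries and Ppara exceeded Rxra in 7 of 15, so the order of these 3 is not resolved by their spread. Ppargc1b exceeded Ppara in 7 of 8 wild-type libraries (means 20.1 and 17.3 FPKM) and in 2 of 7 kidney disease libraries (means 16.1 and 17.0 FPKM).

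Ppara (ENSMUSG00000022383, chr15:85734983-85802819, plus strand), the main PPAR of fatty acid oxidation in heart and liver, ranged from 55.4 through a median of 61.8 to 77.7 CPM in kidney disease and from 55.5 through 65.4 to 81.2 CPM in wild type. The groups covered nearly the same range, and the log2 change was -0.03 (SE 0.09, 95% interval -0.21 to 0.16, adjusted p = 0.95). Kidney disease animal 1 and wild-type animal 4 were the highest of their groups. Without diseased animal 6 the change was -0.0054, and without wild-type animal 7 it was -0.06. The interval allows a level between 0.864 and 1.12 times that of wild type.

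Ppard (ENSMUSG00000002250, chr17:28232700-28301474, plus strand), the broadly expressed PPARdelta, ranged from 32.99 through 38.6 to 42.9 CPM in kidney disease and from 35.8 through 41.1 to 46.3 CPM in wild type. Of the 7 diseased animals 6 were below the wild-type mean, but the groups overlapped over most of their range. The log2 change was -0.09 (SE 0.06, 95% interval -0.22 to 0.03, adjusted p = 0.60), -0.06 without diseased animal 6 and -0.12 without wild-type animal 7.

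Pparg (ENSMUSG00000000440, chr6:115360951-115490399, plus strand), the receptor best known from fat cells, had 420 to 815 counts per library. It ranged from 9.09 through 11.1 to 13.2 CPM in kidney disease and from 8.37 through 10.4 to 12.9 CPM in wild type, again with wide overlap. The log2 change was 0.09 (SE 0.10, 95% interval -0.11 to 0.29, adjusted p = 0.78), 0.05 without diseased animal 6 and 0.12 without wild-type animal 7. Fat-cell transcripts varied between the same libraries. Adipoq, the adipocyte hormone adiponectin, ranged from 0.0162 through a median of 0.515 to 1.78 CPM in kidney disease. In wild type it ranged from 0.399 through 0.569 to 5.37 CPM. Its log2 change was -1.34 (SE 0.72, adjusted p = 0.48), and from -1.86 to -0.78 without 1 library. Of 10 adipocyte markers 7 could be tested and none passed in edgeR (1.28% of all genes did). There were 4 at an unadjusted p under 0.05, against 12.4% of all genes. Those were mixed in direction: Fabp4 was higher (log2 change 0.28), and Plin1 (-1.66), Plin4 (-0.26) and Cidea (-0.27) were lower. Over the 7 tested, 6 estimates lay below 0 (48.8% of all genes did), all but that of Fabp4. In kidney disease Fabp4 and Plin4 had means of 295 and 281 CPM, against 1.07 CPM for Plin1 and 0.64 CPM for Adipoq. The summed level of the markers was 539 to 717 CPM in kidney disease against 580 to 722 CPM in wild type. It came mostly from Fabp4 and Plin4, so it says little about the other markers and is not a measure of fat content. The part of the adipocyte markers in the Pparg values was not tested.

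Rxra (ENSMUSG00000015846, chr2:27676440-27762957, plus strand), a partner of the PPARs, ranged from 91.5 through 107 to 115 CPM in kidney disease and from 103 through 109.7 to 118 CPM in wild type. Diseased animals 5 and 6 lay below every wild-type animal, and the other 5 overlapped with them. The log2 change was -0.07 (SE 0.06, 95% interval -0.19 to 0.05, adjusted p = 0.71), with -0.04 without diseased animal 6 and -0.08 without wild-type animal 7. The other retinoid X receptor genes were present too and did not pass. Rxrb had means of 48.7 CPM in kidney disease and 47.3 CPM in wild type (log2 change 0.04, adjusted p = 0.88). Rxrg had means of 60.2 and 60.9 CPM (log2 change -0.02, adjusted p = 0.97).

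Esrra (ENSMUSG00000024955, chr19:6910977-6921840, minus strand), the ERR most tied to respiratory chain genes, ranged from 141 through 152 to 166 CPM in kidney disease and from 119.7 through 161 to 181 CPM in wild type. The low wild-type value was animal 7, far below the other 7 wild-type animals. With it the log2 change was -0.05 (SE 0.07, 95% interval -0.20 to 0.10, adjusted p = 0.86), and without it -0.10 (adjusted p = 0.42). Without diseased animal 6, the highest of its group, it was -0.07. Of its exon bases, 73 lie over Trmt112 on the other strand and 91 over Mir6990, which had 0 counts, while Esrra itself had 129666 counts over all libraries against 8504 for Trmt112.

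Esrrb (ENSMUSG00000021255, chr12:86361117-86521628, plus strand), an ERR also known from stem cells, ranged from 35.6 through 41.4 to 45.8 CPM in kidney disease and from 36.1 through 42.7 to 49.9 CPM in wild type. The log2 change was -0.05 (SE 0.07, 95% interval -0.20 to 0.09, adjusted p = 0.84), with overlapping groups. It was -0.02 without diseased animal 6 and -0.08 without wild-type animal 7. Esrrg (ENSMUSG00000026610, chr1:187608791-188214885, plus strand), which is enriched in oxidative muscle, ranged from 46.3 through 64.6 to 71.7 CPM in kidney disease and from 57.7 through 67.8 to 75.7 CPM in wild type. Only diseased animal 6 lay below the lowest wild-type animal. The log2 change was -0.11 (SE 0.08, 95% interval -0.27 to 0.06, adjusted p = 0.64), with -0.05 without diseased animal 6 and -0.13 without wild-type animal 7.

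Ppargc1a (ENSMUSG00000029167, chr5:51454250-51567726, minus strand), the coactivator induced by fasting, cold and exercise, ranged from 120.3 through 148.5 to 174 CPM in kidney disease and from 119 through 144 to 170.3 CPM in wild type. The groups covered the same range, with a log2 change of 0.01 (SE 0.08, 95% interval -0.17 to 0.18, adjusted p = 0.98). Without diseased animal 6 it was 0.05, and without wild-type animal 7 it was 0.02. The interval allows a level between 0.891 and 1.14 times that of wild type.

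Ppargc1b (ENSMUSG00000033871, chr18:61298136-61400431, minus strand), its close relative, had the largest difference of the 10. It ranged from 50.7 through 66.0 to 72.1 CPM in kidney disease and from 59.2 through 80.6 to 111 CPM in wild type. All 7 diseased animals lay below the wild-type mean, while wild-type animals 7 and 8 lay within the diseased range. Means were 64.3 ± 7.86 (SD, n = 7) and 80.1 ± 16.3 CPM (n = 8), a log2 change of -0.32 (SE 0.11, 95% interval -0.55 to -0.08). The unadjusted p of edgeR's test was 0.0106 and the adjusted p = 0.21, so the difference did not pass. Leaving out any 1 library gave log2 changes from -0.37 to -0.23 and adjusted p from 0.093 to 0.35, with the smallest difference when wild-type animal 1, the highest, was left out. It was -0.27 without diseased animal 6 and -0.36 without wild-type animal 7. In the 10 libraries led by mt-Co1 the log2 change was -0.35, and in the 5 led by Ttn it was -0.21.

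Nrip1 (ENSMUSG00000048490, chr16:76287400-76373827, minus strand), the corepressor, ranged from 41.9 through 45.4 to 56.2 CPM in kidney disease and from 40.9 through 46.9 to 69.0 CPM in wild type. The highest value, wild-type animal 3, stood well above the other 7. The log2 change was -0.07 (SE 0.09, 95% interval -0.26 to 0.13, adjusted p = 0.85), and 0.02 without that animal. Leaving out diseased animal 6 or wild-type animal 7 gave -0.05 in each case.

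**Figure D2:**
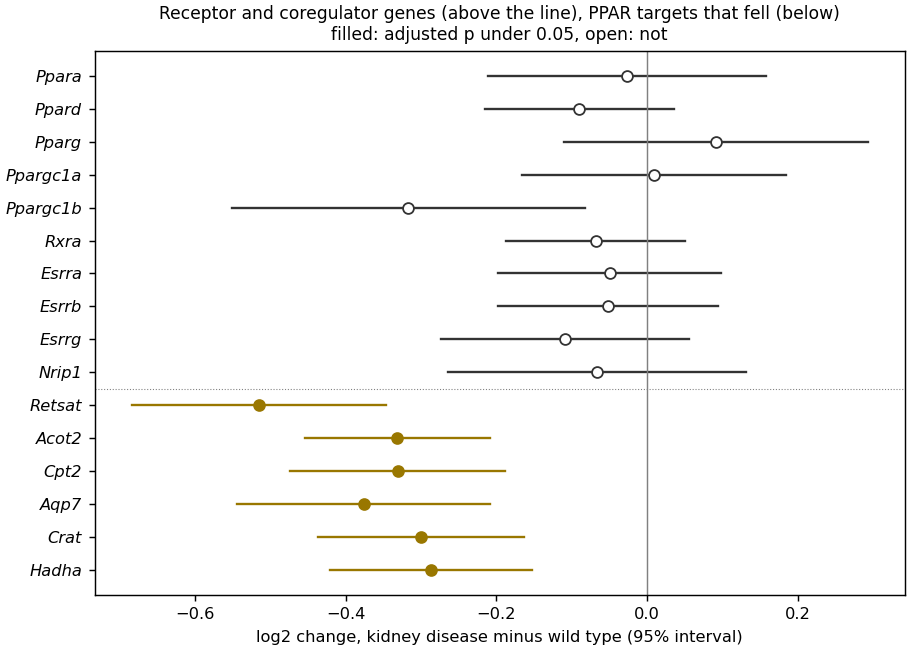
Log2 change (kidney disease minus wild type, with 95% intervals) for the 10 receptor and coregulator genes above the dotted line and for the 6 PPAR target genes that fell below it, filled where the adjusted p is under 0.05. Of the 10 intervals 9 cross 0, that of Ppargc1b runs from -0.55 to -0.08 without passing after adjustment, and Retsat lies lowest at -0.52.

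A set of 4 log2 ratios within a library, which do not depend on scaling between libraries, asked whether paired genes changed unequally. Ppargc1a exceeded Ppargc1b by 0.44 ± 0.19 (SD, n = 7) in kidney disease and by 0.14 ± 0.28 (n = 8) in wild type, a difference of 0.31 by a two-sided exact permutation test (p = 0.033, adjusted p = 0.13 over the 4 ratios). Of the 7 diseased animals 6 lay above the wild-type mean. Of 15 repeats without 1 library, 14 did not pass (adjusted p up to 0.27), and the one without wild-type animal 7 did (difference 0.37, adjusted p of 0.047). Within the 10 libraries led by mt-Co1 the difference was 0.28 (exact permutation p = 0.095, adjusted p = 0.38). The ratio of Esrrg to Esrra differed by -0.07 (exact permutation p = 0.56), that of Ppara to Ppard by 0.06 (p = 0.48) and that of Ppargc1a to Nrip1 by 0.06 (p = 0.66). The smallest p that the 6435 splits allow is 0.00031.

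How the 10 genes varied from animal to animal was described after subtracting each group's mean from the log2 CPM. Over the 45 pairs of genes and 15 libraries the median Pearson r was 0.35, with 13 pairs above 0.5 and 9 below 0. The closest pair was Rxra and Esrrg (0.77), followed by Ppargc1b and Esrrg (0.69) and Ppara and Ppargc1a (0.67), and the lowest was Pparg and Esrrg (-0.36). Points share their library, so these values are descriptions with no test. Diseased animal 6 was lowest of its group for Ppard, Ppargc1a, Ppargc1b, Rxra, Esrrb and Esrrg and highest for Pparg and Esrra. The same library had the highest summed macrophage (575 CPM) and adipocyte markers (717 CPM) of its group. It had the lowest summed atrial (35.6 CPM), fibroblast (1975 CPM) and endothelial markers (1486 CPM). Its adipocyte sum came mostly from Fabp4, the highest of its group at 467 CPM, while its Adipoq was the lowest at 0.0162 CPM. The part of these markers in its receptor values was not tested. Wild-type animal 7 was lowest for Ppara, Ppard, Rxra, Esrra and Esrrb. It had the lowest summed cardiomyocyte (72868 CPM) and macrophage markers (284 CPM) and the highest summed atrial markers (1511 CPM) of its group, and their part in its values was also not tested. The cardiomyocyte and fibroblast sums came largely from Myh6 and Gsn, so they are not measures of cell content.

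**Figure D3:**
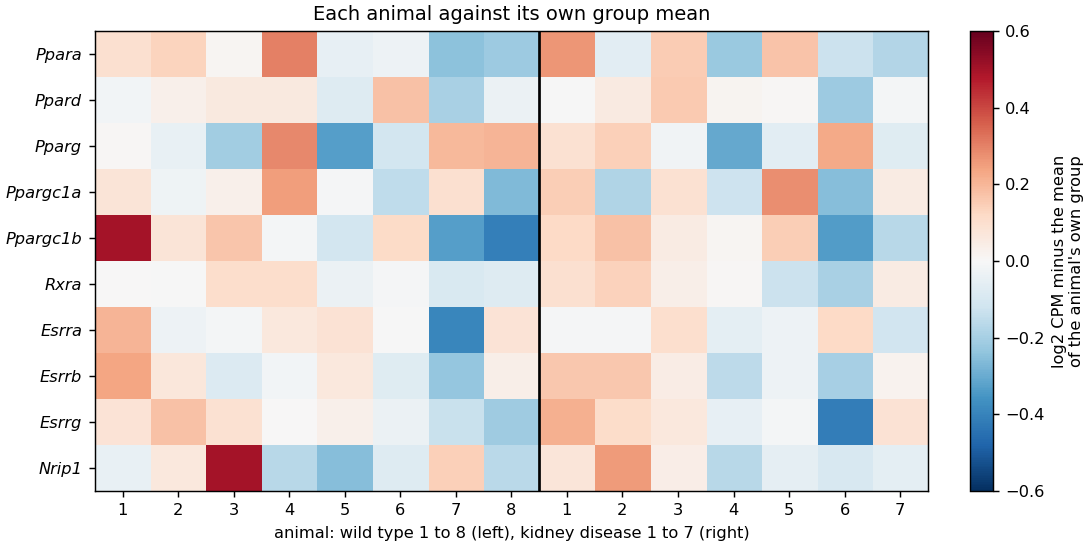
Heat map of each animal's log2 CPM minus the mean of its own group, for the 10 genes (rows) and 15 animals (columns, wild type left of the line). Diseased animal 6 is lowest of its group for 6 genes, wild-type animal 7 for 5, and wild-type animal 3 stands out for Nrip1.

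The genes whose levels followed each of 3 members most closely were sought among 12459 protein-coding genes, as a description. Nearest to Esrra were Atg4d, an autophagy protease (r = 0.97, Spearman rho 0.90), Mtfp1, a mitochondrial fission protein (0.97, rho 0.89), and Mief2, a fission adaptor (0.97, rho 0.92). Without wild-type animals 1 and 7, the ends of the Esrra range, r was 0.94, 0.91 and 0.91. In the diseased animals Mtfp1 and Mief2 did not pass (log2 change -0.25, adjusted p = 0.32, and -0.19, adjusted p = 0.36), but both passed without wild-type animal 7 (adjusted p = 0.032 and 0.047). Atg4d shares 1405 of 7264 exon bases with Kri1 on the other strand. Among the nearest to Ppara were Parvb, an adhesion protein (r = 0.85), and Hs1bp3 (0.82). Without diseased animal 1 and wild-type animal 4, r was 0.83 and 0.77. Nearest to Ppargc1a were Pard3, a polarity protein (0.82), the clotting factor gene F8 (0.80) and Tmem87b (0.80). Without diseased animal 6 and wild-type animal 8, r fell to 0.78, 0.66 and 0.63, so these values lean in part on those libraries. F8 was also low, at means of 4.07 CPM in kidney disease and 4.19 CPM in wild type.

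**Figure D4:**
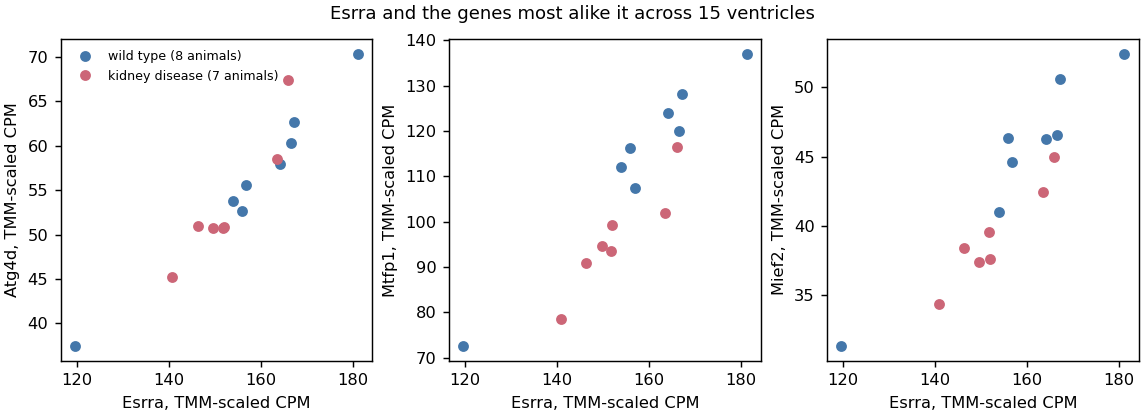
TMM-scaled CPM of Atg4d, Mtfp1 and Mief2 (vertical axes) against that of Esrra (horizontal axis), 1 point per animal. Wild-type animal 7 lies at the lower left of each panel, at 119.7 CPM of Esrra, and r over 15 libraries is 0.97 in each.

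Around the 10 genes, 4 lists of partners, regulators and targets were read in the same fit. Among 25 tested receptor partners and coregulators (Hnf4a was too low to test) none passed in edgeR (1.28% of all genes did) or DESeq2. Of the 25, 5 had an unadjusted p under 0.05 in edgeR's test, against 12.4% of all genes. The median log2 change was -0.07. The lowest p belonged to Perm1, at 395 ± 26.7 CPM in kidney disease and 459 ± 47.8 CPM in wild type (log2 change -0.22, SE 0.07, adjusted p = 0.16), which passed without wild-type animal 7 (adjusted p = 0.024). The corepressor gene Ncor1 had a log2 change of -0.15 (adjusted p = 0.27), and Lpin1, a phosphatase that also assists PPARalpha, -0.15 (adjusted p = 0.39).

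Among 24 tested regulators of PGC-1 (Camk4 was too low to test) none passed in edgeR, against 1.28% of all genes. Of the 24, 5 had an unadjusted p under 0.05 in edgeR's test, against 12.4% of all genes. The median was -0.03. Mapk14, the p38alpha kinase that acts on PGC-1alpha, was at 73.1 ± 2.76 and 81.7 ± 4.36 CPM (log2 change -0.16, SE 0.05, adjusted p = 0.12), and it passed in DESeq2 (adjusted p = 0.025). The AMP kinase subunits Prkab2 and Prkab1 had log2 changes of -0.23 (adjusted p = 0.17) and 0.16 (adjusted p = 0.26), and the deacetylase gene Hdac5 -0.15 (adjusted p = 0.20).

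Among 33 tested PPAR target genes (Fgf21 was too low to test) 6 fell, none rose, and 31 estimates lay below 0, with a median log2 change of -0.19 beside 0.0042 over all genes, of which 48.8% lay below 0 and 0.473% fell. Of the 33, 19 had an unadjusted p under 0.05 in edgeR's test, against 12.4% of all genes. The list holds genes known from earlier results of these data, so its counts are not independent evidence of its direction. Mitochondrially encoded genes took 10.5 to 12.8% of the counts in diseased animals against 11.7 to 14.4% in littermates, and 6 PPAR targets also fell when these genes were removed before scaling. Depth differed between the groups too (above), and its part was not tested. Retsat, a retinol saturase, ranged from 29.3 through 31.5 to 34.5 CPM in kidney disease and from 35.2 through 46.7 to 53.2 CPM in wild type, with no overlap (log2 change -0.52, SE 0.08, adjusted p = 0.0058). Acot2, a mitochondrial acyl-CoA thioesterase, ranged from 81.8 through 90.0 to 93.5 CPM and from 100.02 through 110.8 to 126 CPM, also with no overlap (-0.33, SE 0.06, adjusted p = 0.0096). These 2 were the only genes of the list whose groups did not overlap, against 0.565% of all genes tested. Acot1, its near-identical neighbour, had a log2 change of -0.32 (adjusted p = 0.059), and reads could be split between these copies, so both values are uncertain.

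The other 4 genes that fell overlapped between groups. Aqp7, a glycerol channel whose promoter is printed above, stood at 26.2 ± 2.77 CPM in kidney disease (SD, n = 7) and 34.1 ± 4.13 CPM in wild type (n = 8), a log2 change of -0.38 (SE 0.08, adjusted p = 0.029). Cpt2, the inner carnitine palmitoyltransferase, changed by -0.33 (SE 0.07, adjusted p = 0.023), Crat, carnitine acetyltransferase, by -0.30 (SE 0.07, adjusted p = 0.030), and Hadha, of the trifunctional beta-oxidation enzyme, by -0.29 (SE 0.06, adjusted p = 0.034). Retsat and Acot2 passed whichever library was left out, while Cpt2 lost its call in 4 of 15 such fits, Aqp7 in 5, Crat in 8 and Hadha in 9. The count of 6 became 2 without wild-type animal 3 or 5, and 3 without wild-type animal 4 or diseased animal 3 or 4. Pdk4, the kinase that restrains pyruvate use, ranged from 137 to 385 CPM in kidney disease and from 174 to 633 CPM in wild type, with a log2 change of -0.55 (SE 0.25, adjusted p = 0.38). The 633 CPM belonged to wild-type animal 7, and without it the change was -0.33 (adjusted p = 0.53).

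Among 34 ERR and PGC-1 target genes none passed in edgeR (1.28% of all genes did) or DESeq2. Of the 34, 6 had an unadjusted p under 0.05 in edgeR's test, against 12.4% of all genes. In all, 23 lay below 0 (48.8% of all genes did) and the median was -0.05. Perm1 is on this list too. Acadm, medium-chain acyl-CoA dehydrogenase and also a PPAR target, had a log2 change of -0.19 (adjusted p = 0.21), Ogdh of the citric acid cycle -0.19 (adjusted p = 0.21), and Nrf1, a regulator of nuclear genes for mitochondria, 0.16 (adjusted p = 0.25). Tfam, which maintains mitochondrial DNA, had -0.08 (adjusted p = 0.74). The core AGGTCA lay in 10 of 31 promoter windows of PPAR targets (32.3%, 8 of 26 genes, with Aqp7 and Plin5 counted by 2 windows each) and in 6 of 37 of ERR and PGC-1 targets (16.2%), against 16.3% of all windows. The 2 Aqp7 windows overlap and share 1 match. The longer AAGGTCA lay in 1 of 31 (3.23%) and 3 of 37 (8.11%), against 4.72% of all windows.

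**Figure D5:**
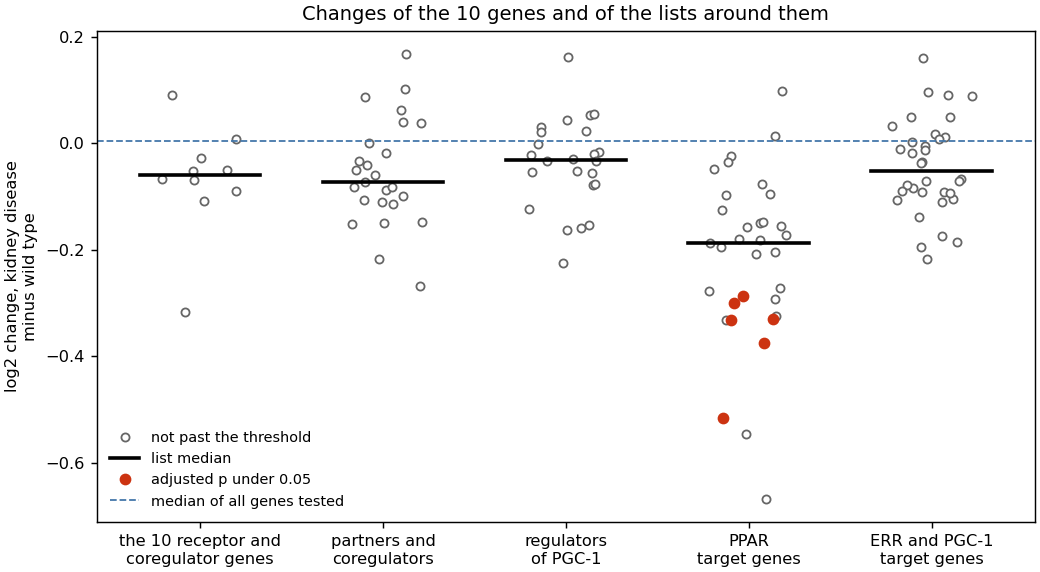
Log2 change (kidney disease minus wild type) of each tested gene, for the 10 receptor and coregulator genes and 4 lists, with bars at list medians and a dashed line at the median of all genes tested. Filled points passed the threshold (6 PPAR target genes, from a list that holds genes known from earlier results of these data), and the lists were not tested against each other.

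Marker transcripts of some other cell types differed between the groups, while those of others did not pass. Of 10 macrophage markers 8 rose, with summed levels of 402 to 575 against 284 to 350 CPM in the littermates. Of 10 fibroblast markers 5 rose (1975 to 2434 against 1982 to 2292 CPM). Over all genes tested 0.811% rose, 1.28% passed in either direction and 12.4% had an unadjusted p under 0.05 in edgeR's test. Summed cardiomyocyte markers ranged from 72092 to 81158 CPM in kidney disease and from 72868 to 95478 CPM in wild type, and none of the 10 passed in edgeR, with 3 at an unadjusted p under 0.05. None of 10 endothelial markers passed, with 3 at an unadjusted p under 0.05 (1486 to 1757 against 1286 to 1629 CPM). The 6 atrial markers, 0 of them past the threshold and 0 at an unadjusted p under 0.05, summed to between 35.6 and 1793 CPM in kidney disease and between 39.8 and 1511 CPM in wild type. Myh6 made up a large part of the cardiomyocyte sum, with means of 37399 CPM in kidney disease and 43626 CPM in wild type. Gsn did so for the fibroblast sum (1397 and 1324 CPM), so these sums say little about the other markers. The part of these markers in the receptor and target values was not tested.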

How the data were processed

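Per the submitters' processing notes, bcl2fastq, STAR 2.7.9a, Subread and featureCounts 2.0.3 were used with GRCm38; no source used here gives the strand setting. The deposited tables hold raw counts per gene, and the authors' CPM and FPKM beside them, which were recomputed from the counts within a relative tolerance of 1e-06. Of 55487 identifiers 55227 were in GENCODE M21, and 99.4% had identical coordinates.

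Counts were tested with edgeR 4.0.16 (R 4.3.3) after filterByExpr (minimum count 10) and TMM scaling, by the quasi-likelihood test with Benjamini-Hochberg adjustment over all 20718 genes at 0.05. Levels are TMM-scaled CPM, or TMM-scaled FPKM between genes, and correlations use log2 CPM with a prior count of 2. Other scalings, filters, DESeq2 1.42.0, limma 3.58.1 (voom), a replicate block, the leading gene as covariate or subset, and leaving out each library were tried. The edgeR fit was also run on simulated counts, with changes all larger than the estimates of the 10 members. It therefore does not show the power for changes as small as theirs. No pair of libraries in a group agreed within sampling noise (49 pairs, chi-square at least 9.16 times its degrees of freedom). Same-numbered animals were not treated as pairs.

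The members and lists were chosen with earlier results of these data known. Named are the 10 members, genes of each list past the threshold or the 4 with the smallest p, Col4a5, fixed context genes (Pdk4, Cpt1b, Tfam, Perm1, Adipoq), and for Ppara, Ppargc1a and Esrra the 3 most correlated protein-coding genes with a mean of at least 1 CPM. Acot1 was named after its value was seen, as the near-identical copy of Acot2. Rxrb and Rxrg, and the adipocyte markers at an unadjusted p under 0.05, were also named after their values were seen. Some genes that this rule names are not reported here.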

Additional observations from a re-analysis of the deposited data

Results flagged for a closer look

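In 8 of 86 groups of values searched, 1 library stood apart from the rest of its group by Dixon's gap test, where chance would give about 4.3 (1 in 20) if the groups were independent. They are not: some genes were chosen for following a member, and the ratios reuse member values. The counts are therefore a description, and 8 against 4.3 is not a test. Mtfp1 was chosen for following Esrra and Pard3 for following Ppargc1a, so neither is a separate sign that an animal stands apart. Wild-type animal 7 was apart in 4 of them: lowest for Esrra at 119.7 CPM, for Mapk14 at 72.1 CPM and for Mtfp1 at 72.5 CPM, and highest for Pdk4 at 633 CPM. Diseased animal 6 was apart in 3: lowest for Ncor1 at 169 CPM, for Pard3 at 56.8 CPM and for the log2 ratio of Esrrg to Esrra at -2.33. Wild-type animal 3 was highest for Nrip1 at 69.0 CPM.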

How the results depend on the processing

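None of the 10 receptor and coregulator genes passed in any of 11 other settings or 15 fits without 1 library, and no called value changed sign. The log2 change of Ppargc1b ran from -0.36 to -0.21 over the other settings (adjusted p from 0.082 to 0.71), and the uncalled estimates of Ppara, Pparg, Ppargc1a, Esrra, Esrrb and Nrip1 crossed 0 in some. The 266 genes called over all genes became 642 in DESeq2 (381 higher, 261 lower), 523 with the leading gene as covariate, 86 in the libraries led by mt-Co1, 3 in those led by Ttn (a subset chosen after seeing the data), and 97 to 388 without 1 library. Genes that fell numbered 154 with a filter of 1 CPM in 7 libraries and 65 without a filter, against 98.

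PPAR target genes that fell numbered 2 in the libraries led by mt-Co1, 0 in those led by Ttn (5 libraries, where 1774 of 22393 genes had an unadjusted p under 0.05), and 2 to 7 without 1 library. Of the regulators of PGC-1, 1 fell (Mapk14) in DESeq2 and with the 1 CPM filter, and 0 to 1 without 1 library, as for partners and for ERR and PGC-1 targets. The Ppargc1a to Ppargc1b difference ran from 0.25 to 0.37 without 1 library. The subsets hold fewer samples, and the cause of the other shifts was not tested.

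Replicate numbers were shared between groups, but deviations of same-numbered animals correlated between -0.20 and 0.42, with the own number the best match in 2 of 7, so the animals were not taken as pairs. With a replicate block 116 genes were called (66 higher, 50 lower), 3 PPAR targets fell, and Ppargc1b had a log2 change of -0.36 (adjusted p = 0.082).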

Other observations

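Cpt1b, the muscle carnitine palmitoyltransferase and a PPAR target, had only 353 to 564 counts per library. Of its 3372 exon bases 2744 (81.4%) are shared on the same strand with Gm44502, which had 0 counts in every library, so its level here is uncertain, as is its log2 change of -0.18 (SE 0.09, adjusted p = 0.43). It was the only one of the 34 PPAR target genes to share so large a part of its exons with another gene. Fat transcripts were uneven between wild-type animals: Ucp1, a brown-fat gene named after its value was seen, reached 24.5 CPM in wild-type animal 2, against a median of 0.0363 CPM in that group and at most 0.176 CPM in kidney disease.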
